A study of Mus musculus with 9 samples.

Results

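The fibroblast growth factor (FGF) receptors comprise 4 receptor tyrosine kinase genes, Fgfr1, Fgfr2, Fgfr3 and Fgfr4, and Fgfrl1, whose product binds FGFs but lacks the kinase domain. These 5 genes were chosen by name, and each was found once among the 43548 gene identifiers of the deposited table. Polyadenylated RNA of mouse skull tissue was sequenced at embryonic stage E14.5 in 9 libraries, 3 for each of 3 groups. The MCAGF8 vault group is cranial vault of embryos that carried Msx2-Cre and the CAGF8 allele, in which removal of a stop cassette lets the CAG promoter drive mouse Fgf8b. Msx2-Cre acts in surface ectoderm and not in the bone and suture mesenchyme beneath it, and the skin was peeled off before the vault was collected. The control vault and control base groups, labelled wildtype, came from embryos of the same cross without Cre. The study's methods give the CAGF8 parents as homozygous, so the controls also inherited the allele with its stop cassette in place. The control base group is cartilaginous cranial base collected once the brain had been removed. The strain was mixed, each library was RNA pooled from 3 tissue samples, and no source used here says whether vault and base pools shared embryos. With every library a pool, p-values measure the spread between pools and not between embryos.

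FGF ligands bring receptors together in pairs on the cell surface with heparan sulfate, and the kinase domains then phosphorylate each other and the docking protein FRS2, which starts the MAPK and PI3K pathways. In the skull, Fgfr1 and Fgfr2 are known for roles in suture mesenchyme and the osteoblast lineage, Fgfr3 for restraining the growth of chondrocytes, and Fgfr4 for its presence in developing muscle. Activating mutations of the first 3 of these genes cause human craniosynostosis or chondrodysplasia.

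The third immunoglobulin loop of Fgfr1, Fgfr2 and Fgfr3 is finished by 1 of 2 alternative exons, called IIIb and IIIc, which set which ligands the receptor binds. Epithelia mostly use IIIb and mesenchyme mostly uses IIIc, and FGF8b acts through the IIIc forms and FGFR4. The deposited values join both forms of a gene, so no result below separates them. The exon pair of Fgfr3 is shown as an example, because the choice between such exons is what a gene-level value does not hold. In the GRCm38 build and GENCODE M21 the pair lies on chromosome 5, plus strand, at chr5:33731281-33731431 (IIIb) and chr5:33732117-33732261 (IIIc). Both are coding exons, named from their order, with the IIIb exon transcribed first. They are written 5′ to 3′, with capitals for bases that the forms share in their alignment:
Fgfr3 IIIb: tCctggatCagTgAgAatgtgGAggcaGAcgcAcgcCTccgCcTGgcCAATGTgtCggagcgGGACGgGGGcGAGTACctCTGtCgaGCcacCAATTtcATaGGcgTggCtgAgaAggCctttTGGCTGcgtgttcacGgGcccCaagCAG
Fgfr3 IIIc: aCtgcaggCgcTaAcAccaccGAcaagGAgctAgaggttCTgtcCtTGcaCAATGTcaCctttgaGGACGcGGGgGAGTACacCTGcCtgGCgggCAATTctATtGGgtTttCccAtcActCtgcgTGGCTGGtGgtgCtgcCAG
The Fgfr3 exons were identical at 68 of 154 aligned positions (44.2%). Fgfr4 (chromosome 13) has a single form of this loop.

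Some libraries stood apart from others of their group. Summed over 16 cartilage markers, control base replicates 1 and 3 reached 1320 and 1831 FPKM (fragments per kilobase of transcript, scaled to the mapped fragments of the library), below every vault library (2370 to 5854), while base replicate 2 reached 11746. Receptor differences from the base, and calls that involve it, are therefore also given for replicate 2 as the only base library and for the base without it. Skeletal muscle markers (16 of 16 in the table) summed to 61.1 to 227 FPKM in MCAGF8 vault, 978 to 6172 in control vault and 1871 to 11798 in control base. Skin epidermis markers (15 of 15) summed to 452 to 1107, 36.2 to 124 and 123 to 806 FPKM, and bone markers (14 of 14) to 2272 to 2990, 4087 to 7388 and 1028 to 2458 in the same order. The bone sum was mostly Col1a1 in MCAGF8 vault, at 2523, 2666 and 2102 FPKM there and 500 to 1013 in base. Of the 14 bone markers, 12 had a lower mean log2 value in MCAGF8 vault than in base and 2 a higher one. Bglap2, an osteocalcin gene, was listed at 0 in all MCAGF8 vault libraries, and no other marker of these 4 lists was at 0 throughout a group. Fgf8 itself was at 19.5, 9.43 and 13.0 FPKM in MCAGF8 vault and 13.5, 8.25 and 3.00 in control vault, which overlap. In such bulk samples, fewer cells of a type and less RNA per cell cannot be told apart.

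All 5 receptors were transcribed in all 9 libraries. Fgfr1 was the most abundant on average (mean 166 FPKM over the 9 libraries, above 94.7% of the 18714 genes tested), followed by Fgfr2 (131 FPKM, 93.1%), Fgfr3 (66.9 FPKM, 84.9%), Fgfrl1 (46.4 FPKM, 78.2%) and Fgfr4 (10.9 FPKM, 44.8%). FPKM is per length, so these levels can be set side by side. In control vault the order was Fgfr1, Fgfr2, Fgfr3, Fgfrl1 and Fgfr4, where Fgfr1 overlapped Fgfr2 and Fgfr3 overlapped Fgfrl1 between libraries. MCAGF8 vault had the same order of means, and only Fgfr3 and Fgfrl1 overlapped. In control base the order of means was again the same, but each neighbour overlapped the next except Fgfrl1 and Fgfr4.

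**Figure D1:**
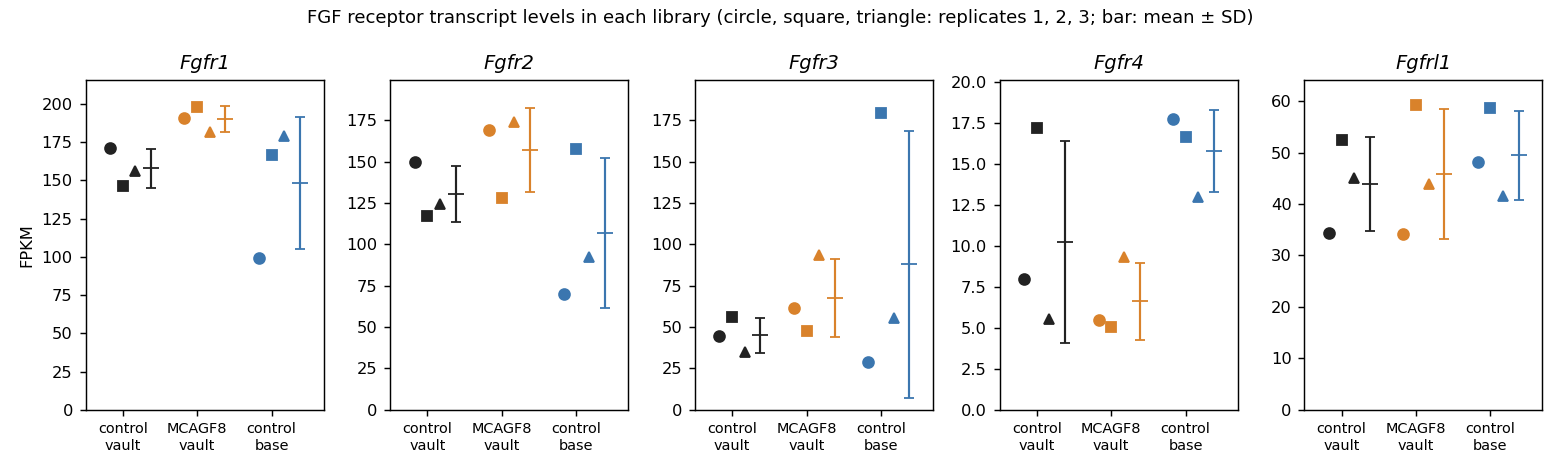
FPKM of each FGF receptor (vertical axes from 0, each on its own scale) in the 9 libraries, with circles, squares and triangles for replicates 1, 2 and 3 and a bar for the mean ± SD of 3 libraries. The MCAGF8 vault libraries are above both control groups for Fgfr1 only, and base replicate 2 stands apart for Fgfr3 at 180 FPKM.

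None of the 15 tests of a receptor (5 genes in 3 comparisons) was called, where a call needed both an unadjusted p under 0.05 and, adjusted over all genes tested by the Benjamini-Hochberg method, a p under 0.1 (limma). Across all genes, 0.604% were called between MCAGF8 vault and control vault, 8.39% between MCAGF8 vault and control base, and 3.06% between control base and control vault. A single receptor test, that of Fgfr4 between MCAGF8 vault and control base, had an unadjusted p under 0.05, a level reached by 19.6% of all genes in that comparison, and by 6.34% and 12.8% in the first and the third. The median log2 difference of the 5 receptors was 0.26, -0.02 and 0.17 in the 3 comparisons, beside -0.01, -0.07 and 0.07 over all genes. The comparisons share control libraries and are not independent.

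**Figure D2:**
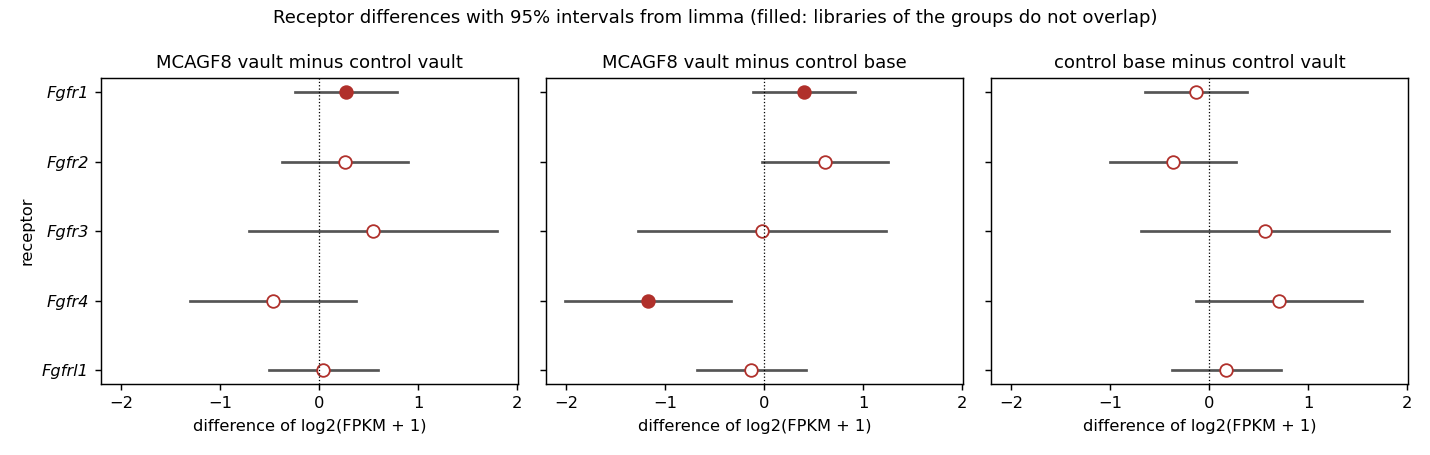
Difference of group means on the log2(FPKM + 1) scale (horizontal axis) for each receptor, with 95% intervals from limma, in the 3 comparisons. Filled points mark the 3 of 15 differences whose libraries did not overlap between the groups. Over all genes, groups did not overlap for 19.2%, 21.9% and 15.5% in the 3 comparisons, from left to right. The interval of Fgfr4 between MCAGF8 vault and control base, -2.01 to -0.34, is the only one without 0.

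Fgfr1 (ENSMUSG00000031565) is the main FGF receptor of mesenchyme and lies on chromosome 8 at chr8:25513654-25575718, plus strand. It was at 191, 198 and 182 FPKM in MCAGF8 vault replicates 1, 2 and 3, at 171, 146 and 156 in control vault and at 99.1, 167 and 179 in control base. All MCAGF8 vault libraries were above all libraries of both control groups, by a small margin over the highest control of each. The means were 190 ± 8.38, 158 ± 12.7 and 148 ± 43.0 FPKM (SD, n = 3 each). The difference from control vault was 0.27 ± 0.23 on the log2(FPKM + 1) scale (SE, adjusted p = 0.969, limma), with a 95% interval of 0.843-fold to 1.72-fold. Groups did not overlap for 19.2% of all genes in that comparison, and were not overlapping and higher in MCAGF8 vault for 9.90%. From control base it was 0.40 ± 0.23 (adjusted p = 0.372), where 21.9% of all genes did not overlap and 8.91% did so with MCAGF8 vault higher. The low base value was that of replicate 1, and without that library the difference from base was 0.14 (adjusted p = 0.785). It was 0.19 (adjusted p = 0.571) with base replicate 2 as the only base library and 0.51 (adjusted p = 0.178) without replicate 2. Control base minus control vault was -0.13 ± 0.23 (adjusted p = 0.934), 0.08 with base replicate 2 alone and -0.24 without that library. Relative to the mean of the 9 libraries, signal in base replicate 1 also fell most steeply with the exon length of genes. Its slope was -0.71 log2 units per log10 unit of length, against -0.21 to 0.32 in the others. The part of this trend in the receptor values was not tested directly. After the trend with length and GC content was removed from every library, Fgfr1 differed from base by 0.36 with adjusted p = 0.0922, past the call. In that setting 2949 genes were called.

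Fgfr2 (ENSMUSG00000030849), whose IIIb form serves epithelia and IIIc form mesenchyme and osteoblasts, lies on chromosome 7 from chr7:130162451 on the minus strand, with its RefSeq end at 130266808. It reached 169, 128 and 174 FPKM in MCAGF8 vault, 150, 117 and 125 in control vault and 70.3, 158 and 92.5 in control base. The groups overlapped in every comparison (15.5% of all genes did not overlap between control base and control vault), with base replicates 1 and 3 lowest of the 9 libraries. The difference from control vault was 0.26 ± 0.28 (adjusted p = 0.969), an interval of 0.770-fold to 1.86-fold. From control base it was 0.62 ± 0.28 (adjusted p = 0.267), with an interval of 0.989-fold to 2.39-fold. That value turned on base replicate 2. Without it the difference was 0.94 and was called (adjusted p = 0.0213, limma). In that setting 4580 of the 18714 genes were called, against 1571 with all 9 libraries. With base replicate 2 as the only base library the difference was -0.02. Control base minus control vault was -0.36 ± 0.28 (adjusted p = 0.746), 0.28 (adjusted p = 0.506) with base replicate 2 alone and -0.68 (adjusted p = 0.120) without that library. The summed epidermal markers, whose cells use the IIIb form, were higher in every MCAGF8 vault library than in every control vault library, and their part in the Fgfr2 level was not tested.

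Fgfr3 (ENSMUSG00000054252), the receptor of proliferating chondrocytes, lies on chromosome 5 at chr5:33721674-33737068, plus strand. MCAGF8 vault libraries held 61.8, 47.4 and 93.8 FPKM, control vault libraries 44.3, 55.9 and 34.9, and control base libraries 28.7, 180 and 55.2. The highest value was that of base replicate 2 and the lowest that of base replicate 1, so the base spanned the range of both vault groups. MCAGF8 vault minus control vault was 0.54 ± 0.56 (adjusted p = 0.969), an interval of 0.613-fold to 3.47-fold. MCAGF8 vault minus control base was -0.02 ± 0.56 (adjusted p = 0.989) and control base minus control vault was 0.57 ± 0.56 (adjusted p = 0.825). Without base replicate 2 these became 0.69 (adjusted p = 0.222) and -0.15 (adjusted p = 0.854). With it as the only base library, an alternative chosen after seeing the data, they became -1.45 and 2.00. A lone library shows no spread of its own, so no call is read from that setting here.

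The libraries at the ends of the Fgfr3 range were also those at the ends of the cartilage marker range. Base replicate 2 had the highest of both, at 180 FPKM of Fgfr3 and 11746 FPKM of summed markers, and MCAGF8 vault replicate 3 came next at 93.8 and 5854. Base replicate 1 had the lowest of both, at 28.7 and 1320 FPKM. Between the ends the order differed, since MCAGF8 vault replicate 2 had more marker signal (5119 FPKM) than MCAGF8 vault replicate 1 (3186 FPKM) and less Fgfr3 (47.4 against 61.8). Base replicate 3 had less marker signal (1831 FPKM) than control vault replicates 1 and 3 (2485 and 2370 FPKM). It had more Fgfr3, at 55.2 against 44.3 and 34.9 FPKM. The share of Fgfr3 that followed the amount of cartilage in a pool was not tested. Fgfr3-ps, a processed copy on chromosome 1, was at 0.295% to 1.07% of the Fgfr3 value.

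Fgfr4 (ENSMUSG00000005320), a receptor of differentiating muscle progenitors, lies on chromosome 13 at chr13:55152640-55168759, plus strand. It was at 5.45, 5.07 and 9.30 FPKM in MCAGF8 vault, 7.94, 17.2 and 5.54 in control vault and 17.7, 16.6 and 13.0 in control base. Every base library was above every MCAGF8 vault library, and control vault replicate 2 stood with the base. The group means were 6.61 ± 2.34, 10.2 ± 6.16 and 15.8 ± 2.49 FPKM (SD, n = 3 each). MCAGF8 vault was 2.39-fold lower than control base by the means, a difference of -1.17 ± 0.37 (SE, adjusted p = 0.116, limma). It was not called, and groups that did not overlap and were lower in MCAGF8 vault made up 13.0% of all genes. It was called when only the 6 libraries compared entered the fit (adjusted p = 0.0993, with 875 genes called). It was also called when control vault replicate 2 was left out of the shared spread (adjusted p = 0.0570, with 1249 genes called). With base replicate 2 as the only base library it was -1.25 (adjusted p = 0.355), and without that library -1.13 (adjusted p = 0.112). MCAGF8 vault minus control vault was -0.47 ± 0.37 (adjusted p = 0.969), and -0.05 without control vault replicate 2. Control base minus control vault was 0.71 ± 0.37 (adjusted p = 0.507), and 1.12 (adjusted p = 0.210) without control vault replicate 2. It was 0.79 with base replicate 2 as the only base library and 0.66 without that library.

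Skeletal muscle markers and Fgfr4 were high together in part of the libraries. The 3 libraries with the most summed muscle signal were base replicate 1 (11798 FPKM), control vault replicate 2 (6172 FPKM) and base replicate 3 (5033 FPKM), and they held 17.7, 17.2 and 13.0 FPKM of Fgfr4. The match was not exact, since base replicate 2, with 1871 FPKM of muscle markers, had 16.6 FPKM of Fgfr4, and control vault replicate 3, with 1663, had 5.54. MCAGF8 vault replicates 1 and 2, at 61.1 and 81.1 FPKM of muscle markers, had 5.45 and 5.07 FPKM of Fgfr4, close to control vault replicate 3. MCAGF8 vault replicate 3, at 227 FPKM of muscle markers, had more Fgfr4 (9.30) than control vault replicate 1 (7.94) at 978. Of the 16 muscle markers, 14 were called lower in MCAGF8 vault than in control base, beside 5.41% of all genes, and 8 lower than in control vault, beside 0.374%. Without base replicate 2 the count against the base was again 14, and with it as the only base library it was 0, with 13 at an unadjusted p under 0.05. No muscle marker was at 0 in all libraries of a group. Whether the Fgfr4 difference came from muscle in the pools was not tested.

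**Figure D3:**
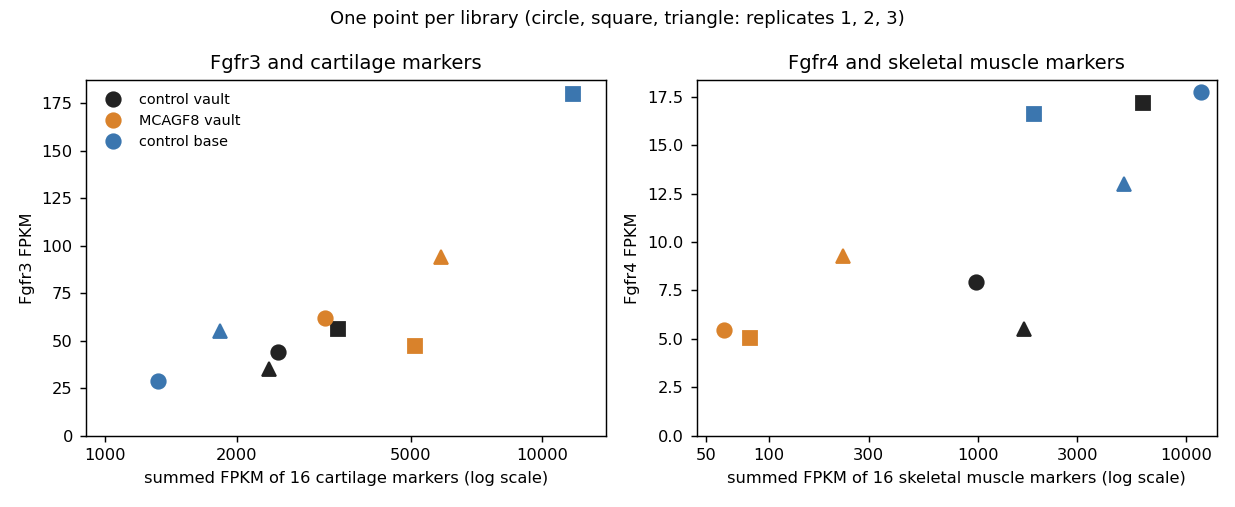
Left, Fgfr3 FPKM against the summed FPKM of 16 cartilage markers. Right, Fgfr4 FPKM against the summed FPKM of 16 skeletal muscle markers. Each point is 1 library and the horizontal axes are logarithmic. Base replicate 2 is at the upper end of the left panel (11746, 180), and the MCAGF8 vault libraries are at the lower end of muscle signal (61.1 to 227) with 5.07 to 9.30 FPKM of Fgfr4.

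Fgfrl1 (ENSMUSG00000008090), the receptor without a kinase, lies on chromosome 5 at chr5:108692382-108706924, plus strand. Its longest coding sequence was 1587 bases, against 2397 to 2520 for the kinase receptors. MCAGF8 vault libraries held 34.2, 59.2 and 44.0 FPKM, control vault libraries 34.4, 52.5 and 45.1, and control base libraries 48.2, 58.7 and 41.5. These ranges nearly coincided in the 3 groups, and the spread between pools of a group exceeded every difference between groups. MCAGF8 vault minus control vault was 0.04 ± 0.25 (adjusted p = 0.993), with an interval of 0.704-fold to 1.51-fold, and the other differences were -0.13 ± 0.25 (MCAGF8 vault minus control base, adjusted p = 0.832) and 0.17 ± 0.25 (control base minus control vault, adjusted p = 0.909). With base replicate 2 as the only base library the latter pair became -0.39 (adjusted p = 0.579) and 0.43 (adjusted p = 0.479), and without it -0.00 and 0.04.

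The make-up of the kinase receptor pool does not depend on how a library was scaled. Fgfr1 supplied 46.0% ± 2.60 of the summed FPKM of Fgfr1 to Fgfr4 in control vault, 45.6% ± 6.44 in MCAGF8 vault and 43.5% ± 10.5 in control base (SD, n = 3 each). Fgfr2 supplied 37.9% ± 2.73, 37.1% ± 2.99 and 30.0% ± 2.67. The Fgfr2 share was 27.2% to 32.6% in the base, below all vault libraries of either genotype (33.8% to 40.1%). A share falls when another receptor is high, and base replicate 2, with 158 FPKM of Fgfr2, held the most Fgfr3. Taken as a ratio to Fgfr1, Fgfr2 was at 0.709, 0.945 and 0.517 in the base, 0.874, 0.803 and 0.797 in control vault and 0.886, 0.645 and 0.957 in MCAGF8 vault, so by that measure the base overlapped both vault groups. Fgfr3 supplied 10.9% to 16.6% in control vault and 12.5% to 20.5% in MCAGF8 vault, and in the base 13.3% and 16.3% in replicates 1 and 3 against 34.5% in replicate 2. Fgfr4 supplied 1.72% to 5.11%, 1.28% to 2.03% and 3.19% to 8.22%, with no overlap between MCAGF8 vault and base. The sum itself was 344 ± 26.6 FPKM in control vault, 422 ± 40.3 in MCAGF8 vault and 359 ± 153 in control base.

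**Figure D4:**
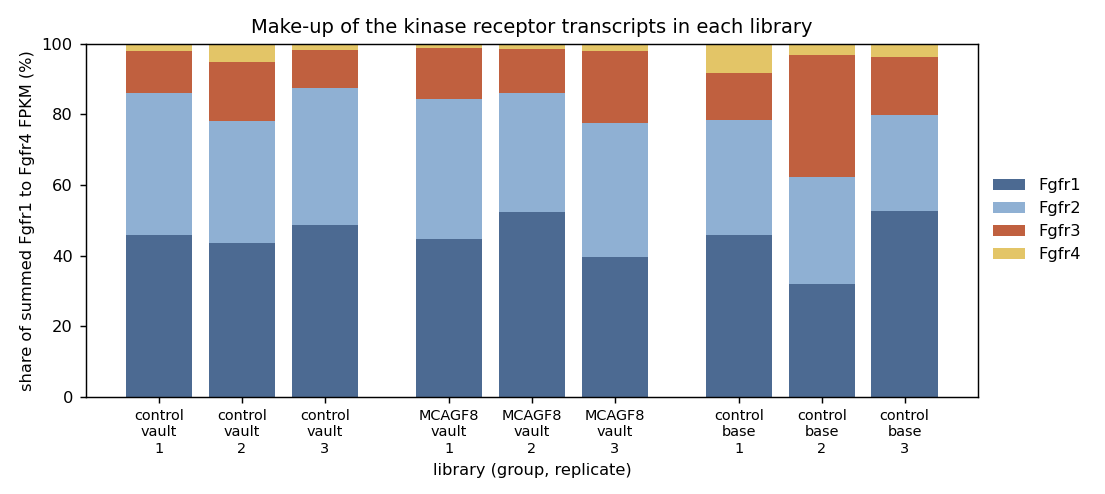
Share of the summed Fgfr1 to Fgfr4 FPKM (vertical axis, %) taken by each kinase receptor in each library, with 3 libraries per group. Fgfr1 and Fgfr2 together make up most of the pool in every library, and base replicate 2 has the largest Fgfr3 share, 34.5%.

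For each receptor, the genes whose log2(FPKM + 1) was most like it were ranked by Pearson correlation over the 9 libraries, among 12933 genes with a mean of at least 5 FPKM. With so many genes and 9 libraries high values arise readily, and libraries share scaling and length trends, so these are descriptions. Fgfr1 was closest to Ptprs (r = 0.993), a receptor tyrosine phosphatase, Man2a2 (0.991), Zfp598 (0.990), Ints1 (0.988) and Wdr59 (0.988). Fgfr2 was closest to Eml4 (0.984), a microtubule-binding protein, Plekhg1 (0.977), Cdk13 (0.977), Acap2 (0.976) and Wdr11 (0.975). Fgfr3 was closest to Phka2 (0.980), Kank1 (0.970), Map3k1 (0.970), Chst11 (0.962), a chondroitin sulfotransferase, and Ypel2 (0.957). Fgfr4 was closest to Magel2 (0.959), Fzd4 (0.952), a Wnt and Norrin receptor, Tspan12 (0.951), Lpl (0.948), which encodes lipoprotein lipase, and Zfp35 (0.943). Fgfrl1 had lower values throughout, with Zdhhc6 (0.853), Rcn2 (0.831), Aif1l (0.828), Asrgl1 (0.810) and Nog (0.797), the BMP antagonist noggin. Among the receptors themselves, Fgfr1 and Fgfr2 were most alike (r = 0.739) and Fgfr1 and Fgfr4 least (r = -0.617).

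Of the 22 FGF ligand genes, 14 passed the filter on low values. Between MCAGF8 vault and control base, 5 were called lower (Fgf5, Fgf6, Fgf7, Fgf9 and Fgf13), where 5.41% of all genes were called lower, and none was called higher. Fgf5 and Fgf6, with means of 0.025 and 0.0165 FPKM in MCAGF8 vault, passed the filter only through the control groups. Their place in the count depends on that filter. Fgf7, which acts on the IIIb form of Fgfr2, was at 4.14, 2.41 and 6.26 FPKM in MCAGF8 vault, 6.51, 6.31 and 5.30 in control vault and 13.1, 10.2 and 8.30 in base, a difference of -1.18 ± 0.30 from base (adjusted p = 0.0546). Fgf9, a ligand of Fgfr3 and of IIIc forms, was at 0.787, 1.41 and 2.03 in MCAGF8 vault, 3.20, 5.99 and 2.99 in control vault and 4.42, 7.61 and 4.03 in base, a difference of -1.39 ± 0.33 from base (adjusted p = 0.0421). For both ligands MCAGF8 vault was below base without overlap, as for 13.0% of all genes. For Fgf9 every control vault library was also above every MCAGF8 vault library, where 19.2% of all genes did not overlap. That difference was not called (-1.06 ± 0.33, adjusted p = 0.390, limma). Fgf5 was at 0 to 0.051 FPKM in MCAGF8 vault, 0.451 to 1.24 in control vault and 0.953 to 2.35 in base, lower than base by -1.41 ± 0.27 (adjusted p = 0.0182). Its difference from control vault, also without overlap, was -0.88 ± 0.27 and not called (adjusted p = 0.385). Fgf6, a ligand of muscle, was at 0 to 0.0494 FPKM in MCAGF8 vault and 1.31 to 2.96 in base (-1.45 ± 0.39, adjusted p = 0.0690). In control vault it was at 0.453, 3.13 and 0.701 FPKM, above MCAGF8 vault without a call (-1.09 ± 0.39, adjusted p = 0.536) and highest in replicate 2, the vault library with the most muscle signal. Its call was kept in 11 of 22 alternative settings and that of Fgf7 in 13 of 23. Without base replicate 2, 6 ligands were called lower than in base, where 4580 of the 18714 genes were called in either direction. The count was smaller with base replicate 2 as the only base library, which gives no spread of its own. The alternatives included base replicate 2 as the only base library. Over them the Fgf7 difference from base ranged from -1.44 to -0.90 and that of Fgf9 from -1.96 to -1.10.

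Fgf13 belongs to the FGFs that stay inside the cell and do not act through these receptors, and it is abundant in neurons. It was at 42.9, 47.7 and 172 FPKM in control base, against 12.4, 19.6 and 15.4 in MCAGF8 vault and 11.9, 16.7 and 11.1 in control vault. All base libraries were above all vault libraries, by 2.36 ± 0.46 over control vault (adjusted p = 0.0466, limma) and with MCAGF8 vault lower than base by -2.12 ± 0.46 (adjusted p = 0.0322). Groups did not overlap for 15.5% of all genes between base and control vault and for 21.9% between base and MCAGF8 vault. It was the only ligand called between control base and control vault, where 1.85% of all genes were called higher. Without base replicate 2, 2 ligands were called higher, where 1322 of the 18714 genes were called in either direction. With base replicate 2 as the only base library the Fgf13 difference was 1.80. Its call was kept in 18 of 23 alternative settings. Brain markers, of which 11 of 12 were in the table, summed to 235 to 674 FPKM in base and 35.7 to 177 in control vault. Most of the base sum was Fabp7 (90.5 to 165 FPKM) and Stmn2 (100 to 470 FPKM). Of the 6 brain markers that passed the filter, 3 were higher in base than in control vault and 3 lower. Their part in the Fgf13 level was not tested. Between MCAGF8 vault and control vault no ligand was called, and 4 of 14 had an unadjusted p under 0.05, beside 6.34% of all genes.

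Among 10 co-receptors and membrane partners tested, Flrt3, a membrane protein that binds FGF receptors, was called higher in MCAGF8 vault than in control base (0.85 ± 0.25, adjusted p = 0.0936), where 2.98% of all genes were. It was at 32.5, 24.3 and 34.4 FPKM in MCAGF8 vault, 25.5, 17.3 and 20.5 in control vault and 14.7, 22.6 and 12.8 in base. The MCAGF8 vault and base libraries did not overlap, by a narrow margin, and the call was kept in 7 of 23 alternative settings. Groups did not overlap with MCAGF8 vault higher for 8.91% of all genes. Without base replicate 2, 3 partners were called higher than in base, where 4580 of the 18714 genes were called in either direction. The Flrt3 call was not kept with base replicate 2 as the only base library, which gives no spread of its own. Over the alternatives, base replicate 2 as the only base library among them, the Flrt3 difference ranged from 0.40 to 1.08. No other partner was called with all 9 libraries. None of 16 adaptors and relay genes, among them Frs2 and Grb2, was called in a comparison with all 9 libraries, with log2 differences of -0.19 to 0.59 between MCAGF8 vault and control vault and 1 unadjusted p under 0.05.

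Of 15 feedback regulators and targets of the pathway, Etv4, an ETS transcription factor induced by FGF signaling, was called higher in control base than in control vault (1.32 ± 0.23, adjusted p = 0.0303), where 1.85% of all genes were. The call was kept in 18 of 23 alternative settings, with adjusted p of 0.0185 to 0.147 over them. It was 1.22 (adjusted p = 0.0397) without base replicate 2 and 1.51 (adjusted p = 0.0503) with it as the only base library. It was at 16.7, 25.3 and 25.1 FPKM in base, 10.4, 8.33 and 6.43 in control vault and 16.4, 20.2 and 17.2 in MCAGF8 vault. Both of the other groups were above control vault in every library, where 15.5% of all genes did not overlap between base and control vault. The difference between MCAGF8 vault and control vault, 1.03 ± 0.23, was not called (adjusted p = 0.163, limma). In that comparison 0 of 15 were called, beside 0.604% of all genes, and the median log2 difference was 0.28, beside -0.01 over all genes. The 4 genes with an unadjusted p under 0.05 (6.34% of all genes) were also the 4 whose groups did not overlap (19.2% of all genes). Besides Etv4 they were Dusp6, a phosphatase that restrains ERK, Spry4, a Sprouty inhibitor, and Ccnd1, which encodes cyclin D1, named after their values were seen. Dusp6 was at 47.2, 59.5 and 46.5 FPKM in MCAGF8 vault and 26.9, 32.6 and 28.7 in control vault (0.77 ± 0.19, adjusted p = 0.205). Spry4 was at 11.3, 10.3 and 10.2 against 6.52, 8.75 and 6.43 FPKM (0.51 ± 0.22, adjusted p = 0.776). Ccnd1 was lower, at 64.8, 90.6 and 80.4 against 112, 109 and 152 FPKM (-0.65 ± 0.20, adjusted p = 0.380). Between MCAGF8 vault and control base 0 were called, beside 8.39% of all genes, and 1 had an unadjusted p under 0.05, beside 19.6%. The count called there was also 0 without base replicate 2 and with it as the only base library.

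Of 5 factors that act on the splicing of receptor transcripts, none was called in a comparison. The epithelial regulators Esrp1 and Esrp2, which favour the IIIb exons and are named here after their values were seen, were the least abundant. Esrp2 was at 7.45, 3.17 and 18.6 FPKM in MCAGF8 vault, 2.79, 1.59 and 0.934 in control vault and 5.95, 2.60 and 9.12 in base. MCAGF8 vault and control vault did not overlap, with a difference of 1.73 ± 0.57 (SE, adjusted p = 0.450, limma). Groups did not overlap for 19.2% of all genes there, and for 9.90% with MCAGF8 vault higher. Esrp1 was at 5.16, 3.85 and 12.8, at 5.32, 1.24 and 2.69 and at 6.55, 10.2 and 12.1 FPKM in the same groups, with control base above control vault in every library (1.47 ± 0.47, adjusted p = 0.189). Between control base and control vault, groups did not overlap for 15.5% of all genes. The Esrp1 difference there was 1.41 (adjusted p = 0.195, limma) without base replicate 2 and 1.58 with it as the only base library. Both genes mark epithelia, and the part of the epidermal signal given above in their levels was not tested. Which receptor exons were used was not analysed here.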

How the data were processed

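The authors sequenced poly(A) libraries made with a stranded kit, mapped single-end reads with gSNAP and derived FPKM with Cufflinks, also named in the submitters' processing notes. No genome build, annotation or version was given in the sources used here. The deposited FPKM values (fragments per kilobase, scaled to mapped fragments, per Ensembl gene) give no counts, so depth is unknown and no counting interval could be given; summed FPKM was 793249 to 1315980 per library.

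Values of 63 rows that repeated an identifier were summed and 9 genes with the placeholder 999999999 left out. Symbols, positions and exons came from GENCODE M21 (GRCm38) and RefSeq; 42375 identifiers matched a symbol. The 18714 genes with a mean of at least 0.5 FPKM were fitted as log2(FPKM + 1) with limma 3.58.1 (R 4.3.3; 1 mean per group, moderated variances with a trend, all 9 libraries, two-sided), which understates changes of low genes. A gene was called at unadjusted p under 0.05 and Benjamini-Hochberg adjusted p under 0.1. The script was tested on simulated data. The Fgfr3 exon pair was aligned with mafft 7.526; the exons of other receptors are not reported here.

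The members and lists were chosen with earlier results of these data known. Named genes were the 5 receptors, every called member of the pathway lists, and the 5 genes most correlated with each receptor; Esrp1, Esrp2, Dusp6, Spry4 and Ccnd1 were added, and Fgf8 was given as the activated gene. Alternatives changed the pseudocount, filter, scaling, samples, moderation, threshold, length and GC trend and replicate block, or left out libraries. G630022F23Rik, which overlaps Fgfr3 on the other strand, was not analysed here; Gm16159, antisense to Fgfr1, was at most at 0.146% of it.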

Additional observations from a re-analysis of the deposited data

How the results depend on the processing

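Of 340 alternative values of the receptor differences, 320 kept their direction and stayed on the same side of the call. Among settings other than leaving out a library, Fgfr3 between MCAGF8 vault and control base turned to 0.19 after rescaling to a common sum and 0.0825 after rescaling to a common median, and Fgfrl1 turned to 0.0803 after the former. In the same comparison the count of receptors called went from 0 to 1 with only the libraries compared (Fgfr4, -1.17), with the length and GC trend removed (Fgfr1, 0.36) and with the unadjusted p alone (Fgfr4, -1.17). With base replicate 2 as the only base library, an alternative chosen after seeing the data, Fgfr2 turned to -0.0195 against MCAGF8 vault and to 0.28 against control vault. In that setting Fgfr1 turned to 0.0812 against control vault, and Fgfr3 rose to 2.00 in the same comparison. The cause was not tested.

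Leaving out 1 library gave Fgfrl1 values of -0.16 to 0.23 for MCAGF8 vault minus control vault and -0.33 to 0.0591 for MCAGF8 vault minus control base. For the latter comparison Fgfr3 ranged from -0.61 to 0.69, Fgfr4 from -1.41 to -1.03 and Fgfr2 from 0.36 to 0.94, and 0 to 1 receptors were called. For control base minus control vault, Fgfr1 ranged from -0.29 to 0.13 and Fgfr3 from -0.15 to 1.16. The single calls came without control vault replicate 2 (Fgfr4) and without base replicate 2 (Fgfr2).

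Over all genes, MCAGF8 vault against control vault gave 113 calls, and 191 or 192 with smaller pseudocounts, 66 with no filter, 71 with a filter at 5 FPKM, 174 with only the libraries compared, 173 with the length and GC trend removed, 35 at adjusted p under 0.05, 1186 by unadjusted p and 0 without moderation. Leaving out 1 library gave 11 to 231. MCAGF8 vault against base gave 1571 calls, and 559 to 4580 with a library left out, 834 with the filter at 5 FPKM, 875 with only the libraries compared, 2949 with the trend removed, 941 at adjusted p under 0.05, 3675 by unadjusted p, 869 without moderation and 984 with base replicate 2 alone. Control base against control vault gave 573 calls, and in the same order 132 to 1322, 291, 108, 1594, 255, 2396, 257 and 863. Replicate numbers were not taken as pairs. Between libraries of the same number, correlations of deviations were 0.37, -0.07 and -0.44 for the vault groups. For control base and control vault they were -0.41, 0.0003 and 0.24. So few values cannot decide whether pools shared embryos. A replicate block gave 0 receptor calls in each comparison and 19, 918 and 234 calls over all genes. With 3 pools per group, intervals of receptor differences reached beyond 1.5-fold in every comparison, and without counts the part of depth in this spread is unknown.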
